A study of Oryza sativa with 2 samples.

Results

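Transporters that take up ammonium and nitrate were examined in RNA of rice root hairs. The list held 9 loci, 4 for ammonium (AMT1;1, AMT1;2, AMT1;3 and AMT2;1) and 5 for nitrate (NRT2.1, NRT2.2, NRT2.3, NAR2.1 and NRT1.1B), and members were the array spots whose systematic name begins with a listed locus. Of the 9 listed loci, 8 had such spots, out of 23325 loci on the array in all, with 13 probes between them. NAR2.1 (Os02g0595900) had none: its single probe carries the locus in the probe name and an EST assembly as systematic name, so it is described but not counted with the 8. The locus names place AMT1;1 on chromosome 4, AMT2;1 on chromosome 5, NRT2.3 on chromosome 1, NRT1.1B on chromosome 10 and the other 5 loci on chromosome 2. The array design annotates 12 of the 13 probes as lying in coding sequence and 3′ UTR of a named mRNA.

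The study measured 2 one-colour arrays of 1 group, titled "07g39940 over" and called sample 2 and sample 1 after the number in the title. Both samples carry that title, the cultivar label Don-gin, the age label 3DAG and 3 days on MSO medium, and in both the hairs were rubbed off detached seminal roots in liquid nitrogen. What "over" stands for, and whether the samples come from separate plants or lines, the labels do not say, so the spread between them may be technical. The series as used here holds no group without the title's label, and no effect of the titled locus could be tested. In bulk RNA, fewer cells of a type and less RNA per cell cannot be told apart.

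Roots meet nitrogen mainly as ammonium and as nitrate. Ammonium enters through channel-like proteins of the AMT family, of which the AMT1 members work at low ammonium concentrations, and rice in flooded soil is known for its reliance on ammonium. Nitrate enters through the high-affinity NRT2 proteins, several of which need the small partner protein NAR2 at the plasma membrane, and through members of the NRT1/NPF family such as NRT1.1B, a nitrate transporter and sensor of rice. Root hairs enlarge the surface across which both ions are taken up.

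By the scanner software's own call, 85.0% of the 43144 spots that are not controls stood well above background in sample 2, and 83.2% did so in sample 1. No spot was saturated. Of the root hair markers, 3 of 5 were on the array and 3 of 3 were detected, against 84.0% of all loci. Their summed signal was 99075 in sample 2 and 95037 in sample 1. CSLD1 (Os10g0578200), a cellulose synthase-like protein needed for hair growth, gave 51117 in sample 2 and 46042 in sample 1. XXT1 gave 47716 in sample 2 and 48800 in sample 1, and FH1 gave 243 in sample 2 and 195 in sample 1. Sums of different lists are not set against each other, since levels of different probes are not comparable. Of 6 markers of the inner root (stele and endodermis), 2 were detected in both samples. All 6 summed to 217 in sample 2 and 279 in sample 1. The detected loci were PHO1;2 (110 in sample 2, 132 in sample 1) and CASP1 (91.4 in sample 2, 138 in sample 1). Both stood above the highest control probe of each array. SHR1 (10.2 in sample 2, 3.82 in sample 1) was called detected in sample 2 alone. The transcription factor loci SCR1 and SCR2 and the sodium transporter HKT1;5 lay at 1.78 to 1.92 in sample 2 and 1.93 to 2.01 in sample 1, near the median negative control (1.74 in sample 2, 1.81 in sample 1). Markers of other tissues differed between the samples. The 3 green tissue markers summed to 359 in sample 2 and 46.0 in sample 1, and all 3 were called detected in both, although none stood above the highest control probe in both samples. The 5 grain storage markers summed to 92.4 in sample 2 and 4923 in sample 1, and 3 of them were detected in both samples. Where these signals come from, and what part they have in the differences described here, was not tested.

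A locus counted as detected when at least 1 of its probes was well above background on both arrays. By this call 7 of the 8 loci were detected, against 84.0% of all loci, so the members' share was near that of the array as a whole. For ammonium it was 4 of 4 loci and for nitrate 3 of 4, NRT2.1 being the exception. The call is lenient, since random-sequence and artificial control probes reached 49.9 in sample 2 and 44.0 in sample 1. Above the highest such control probe in both samples stood 6 of the 8 loci (3 ammonium, 3 nitrate), against 69.5% of all loci. The 2 loci that did not were NRT2.1 and Os02g0620500.

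**Figure D1:**
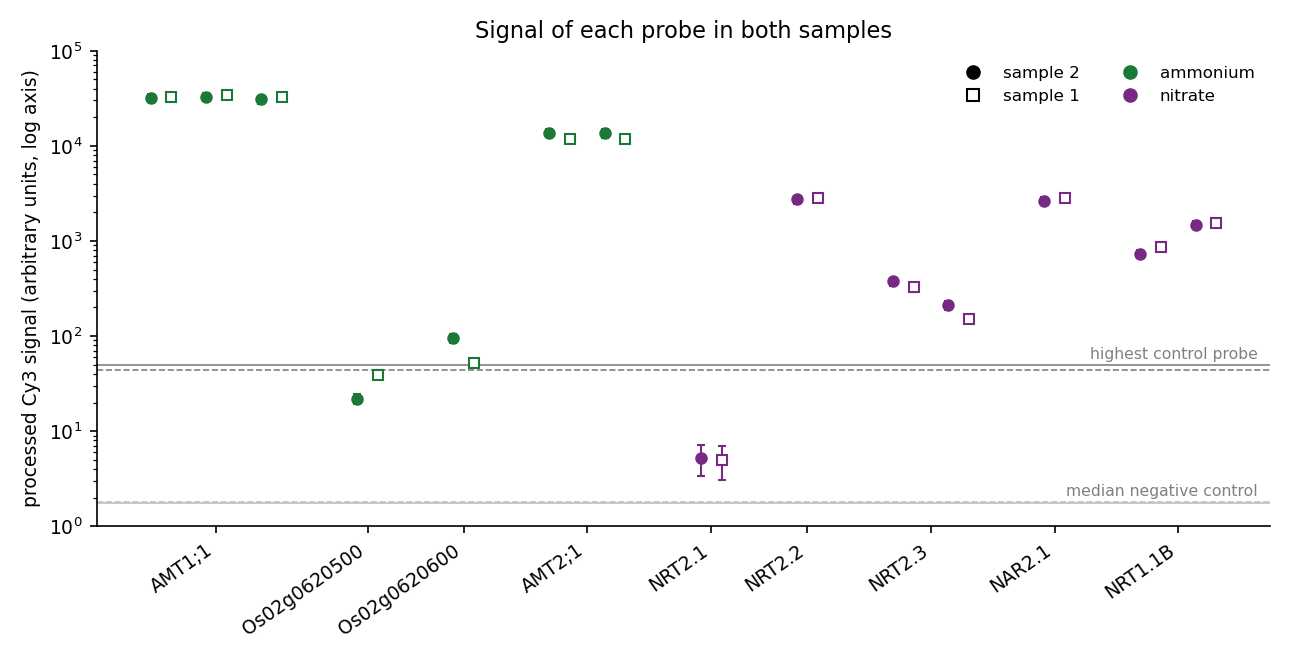
Processed Cy3 signal (arbitrary units, log axis) of each probe of the listed loci in sample 2 (filled) and sample 1 (open), ammonium in green and nitrate in purple; error bars are the scanner software's error of the spot, and lines mark the highest control probe and the median negative control (solid for sample 2, dashed for sample 1). The 3 AMT1;1 probes lie between 30741 and 34488, and NRT2.1 lies between the 2 kinds of control.

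AMT1;1 (Os04g0509600), an ammonium transporter of rice roots and shoots, was read by 3 probes, each taken from a different cDNA of the transcript Os04t0509600-01. Their signals were 31776, 32604 and 30741 in sample 2, against 33021, 34488 and 32990 in sample 1. All 3 were lower in sample 2. Probes of 1 locus read the same RNA on the same arrays, so they are not replicates of a sample. After each array was scaled to its 75th percentile, the log2 difference (sample 2 minus sample 1) was -0.10, with an SD of 0.02 between the 3 probes. The SD over all loci with a mean signal of 5000 and above was 0.11, so the difference was within that spread. With arrays scaled on their median it was -0.20, further from 0 than that SD. Median scaling lowers the difference of every locus alike, so this move is not particular to AMT1;1. The median over all detected loci was 0.03 as reported and -0.06 with median scaling.

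AMT2;1 (Os05g0468700), of the second ammonium transporter subfamily, was read by 2 probes. They gave 13763 and 13531 in sample 2, against 11891 and 11831 in sample 1. Both probes were higher in sample 2. The log2 difference was 0.18 (SD 0.01 between probes), which is 1.56 times the SD of loci of like signal (0.11). Of all loci of that signal, 26.0% lay beyond 1 SD. With arrays scaled on their median, which lowers the difference of every locus alike, it was 0.09, within the SD. The software's error of the difference was 0.14, and the probes differed from each other by less than that error.

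Os02g0620500 and Os02g0620600 are neighbouring loci on chromosome 2 that encode the other AMT1 transporters, both known from roots. The list names them AMT1;2 and AMT1;3 in that order. In the RefSeq gene table (assembly ASM3414082v1) the gene with the synonym OsAMT1;3 comes first along the chromosome and OsAMT1;2 after it, which is the reverse of the locus order under the list's names. They are therefore called by locus here. Of the 8 symbols that the table holds among the 9, all stood on the chromosome that is part of the locus name. NRT1.1B was not found in the table.

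Os02g0620600 had 1 probe, with a signal of 94.9 in sample 2, against 51.5 in sample 1. The probe was 1.90 times the highest control probe in sample 2 and 1.17 times in sample 1. Os02g0620500 also had 1 probe, the only member probe designed from a gene prediction rather than a named mRNA. Its signal was 21.9 in sample 2, against 39.4 in sample 1, both below the highest control probe of their array, and the authors' deposited table calls it absent. The pair thus differed in opposite directions. Os02g0620600 was 1.81-fold higher in sample 2 (log2 difference 0.86, software error 0.21), and Os02g0620500 was 1.83-fold higher in sample 1 (log2 difference -0.87, software error 0.24). Set against loci of like signal, whose SD was 0.50 and 0.53, these were 1.70 and 1.65 SDs from 0. The median difference of those loci was not 0 but 0.10 and 0.17, so the distances from that centre are less alike. Beyond 1 SD lay 11.6% of all loci at a mean signal of 50 to 500 and 25.9% at a signal under 50. With normexp background correction the differences shrank to 0.41 and -0.28, and in the authors' deposited table they were 0.43 and -0.53. Each value rests on 1 probe, and its size moved with the processing while its sign did not.

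NRT2.1 (Os02g0112100) and NRT2.2 (Os02g0112600) are near-identical high-affinity nitrate transporters that lie close together on chromosome 2. The NRT2.2 probe gave 2732 in sample 2, against 2848 in sample 1, a log2 difference of -0.08 with an SD of 0.21 over loci of like signal. The NRT2.1 probe gave 5.25 in sample 2 and 4.98 in sample 1, with software errors of 1.88 and 1.95. Both lay under the lowest signal called well above background on their array (7.14 in sample 2, 7.33 in sample 1), so no fold is given. Whether the NRT2.2 probe also binds NRT2.1 transcripts was not tested, as probe sequences were not used here. The NRT2.2 signal may therefore hold RNA of either gene.

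NRT2.3 (Os01g0704100), a nitrate transporter known from the root stele of rice with transcripts of different form, was read by 1 probe for each of 2 transcripts. The probe for Os01t0704100-02 gave 375 in sample 2, against 325 in sample 1. The probe for Os01t0704100-01 gave 210 in sample 2, against 153 in sample 1. Both were higher in sample 2, by 0.18 and 0.44 on the log2 scale, and the second exceeded 2 software errors of 0.21. The mean of the probes was 0.31 (SD 0.18 between them), within the SD of 0.50 over loci of like signal. Whether the transcripts differ in their change between the samples was not tested, since each had 1 probe.

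NAR2.1, the partner that several NRT2 proteins of rice need at the membrane, was read by the probe that lies outside the list's rule. It gave 2662 in sample 2, against 2808 in sample 1, a log2 difference of -0.10, again within the SD of 0.21 over loci of like signal. NAR2.1 and NRT2.2 were both slightly lower in sample 2, each by less than the software error of 0.20. As levels of different probes are not comparable, no ratio of partner to transporter was formed.

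NRT1.1B (Os10g0554200) was read by probes for 2 transcripts. The probe for Os10t0554200-01 gave 728 in sample 2, against 862 in sample 1, and the probe for Os10t0554200-02 gave 1485 in sample 2, against 1553 in sample 1. Both were lower in sample 2, by log2 differences of -0.27 and -0.09. Their mean of -0.18 (SD 0.13 between probes) was within the SD of 0.21 over loci of like signal. With arrays scaled on their median, which lowers the difference of every locus alike, it was -0.27, further from 0 than that SD.

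**Figure D2:**
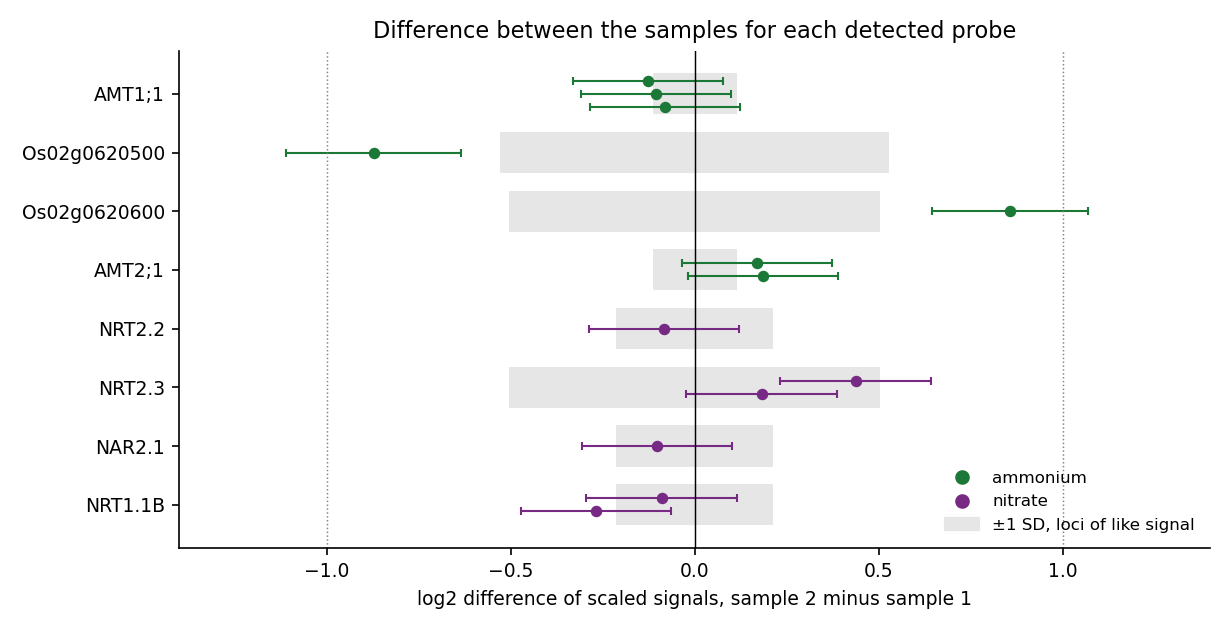
Log2 difference of the scaled signal, sample 2 minus sample 1, for each probe detected in both samples, with the software's error of the difference as error bars, ammonium in green and nitrate in purple; grey bars span 1 SD either side of 0 for all detected loci of like signal, and dotted lines mark a 2-fold difference. No probe lies beyond 2-fold, and Os02g0620500 and Os02g0620600 lie on opposite sides of 0.

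Set side by side, ammonium and nitrate loci showed no common shift between the samples. The median log2 difference was 0.04 over the 4 ammonium loci (range -0.87 to 0.86) and -0.08 over the 3 detected nitrate loci (range -0.18 to 0.31), against 0.03 over all 19582 detected loci. The ammonium median turned to -0.06 when arrays were scaled on their median, and the median over all loci also turned to -0.06. Higher in sample 2 were 2 of 4 ammonium loci and 1 of 3 nitrate loci, against 57.6% of all loci. The share of all loci was 36.2% with median scaling, 44.5% with quantile normalization and 49.8% with cyclic loess, while the members kept their signs. None of the 7 loci was 2-fold apart (0 of 4 ammonium and 0 of 3 nitrate), against 2.31% of all loci (1.83% with the higher signal in sample 2, 0.485% with it in sample 1). With quantile normalization 1 locus, Os02g0620500, was 2-fold apart. Beyond 1 SD of loci of like signal lay 3 of the 4 ammonium loci (AMT2;1, Os02g0620500 and Os02g0620600) and 0 of the 3 nitrate loci, against 16.8% of all loci. The counts moved with the processing. With median scaling AMT1;1 took the place of AMT2;1 among the 3 ammonium loci. That exchange follows from a shift shared by all loci, since distances are taken from 0. In the same setting 1 nitrate locus, NRT1.1B, lay beyond 1 SD, against 23.2% of all loci. NRT1.1B also did so with quantile normalization, normexp correction and the authors' deposited table, each set against its own SD. With 1 group of 2 arrays no test separates these counts from the background, and none was made.

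**Figure D3:**
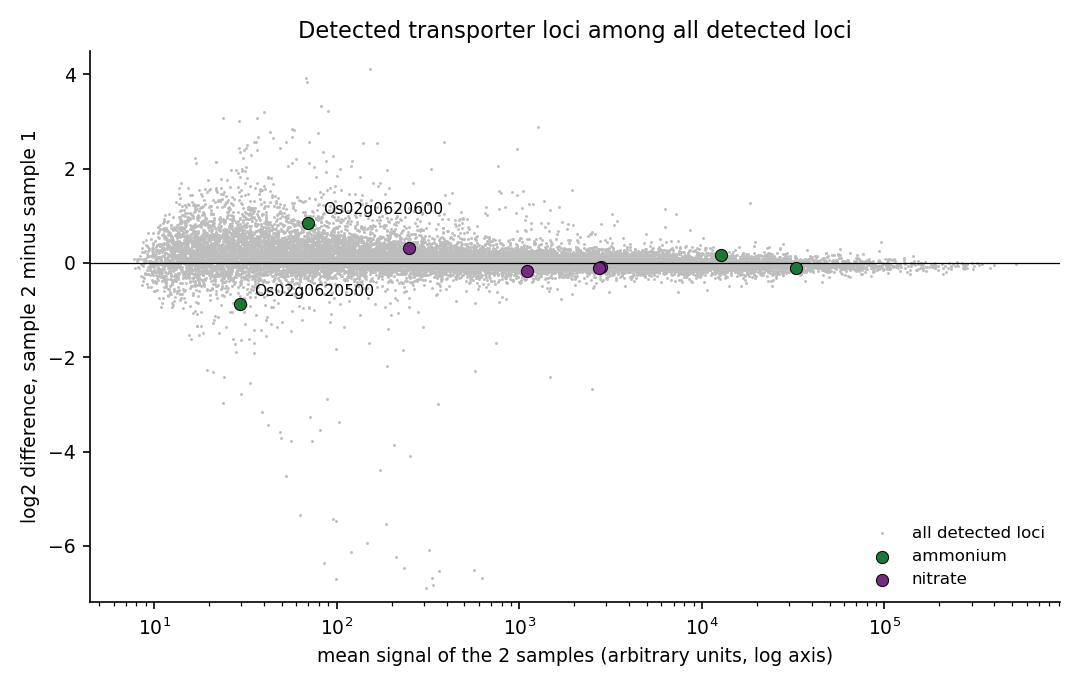
Log2 difference, sample 2 minus sample 1, against the mean signal of both samples (log axis) for all detected loci (grey), with the ammonium loci in green and the nitrate loci, NAR2.1 included, in purple. Os02g0620600 and Os02g0620500 lie 1.70 and 1.65 SDs from 0 in their signal ranges, where the median over all loci is 0.10 and 0.17. The cloud narrows from an SD of 0.53 at signals under 50 to 0.11 at 5000 and above.

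The spread between the samples was smaller among brighter loci. Over all detected loci the SD of the difference was 0.53 at a mean signal under 50, 0.50 from 50 to 500, 0.21 from 500 to 5000 and 0.11 at 5000 and above. The median difference was 0.17, 0.10, 0.01 and -0.03 in the same order, while distances in SDs are taken from 0. The share of loci at least 2-fold apart was 7.57%, 2.77%, 0.432% and 0.0781% in the same order. AMT1;1 and AMT2;1 fell in the brightest range, NRT2.2, NAR2.1 and NRT1.1B in the next, NRT2.3 and Os02g0620600 in that from 50 to 500, and Os02g0620500 in the dimmest. Probes of the same locus had the same sign for all 4 loci with more than 1 probe. Such probes read the same RNA on the same arrays, and the share of this agreement over all loci was not computed.

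**Figure D4:**
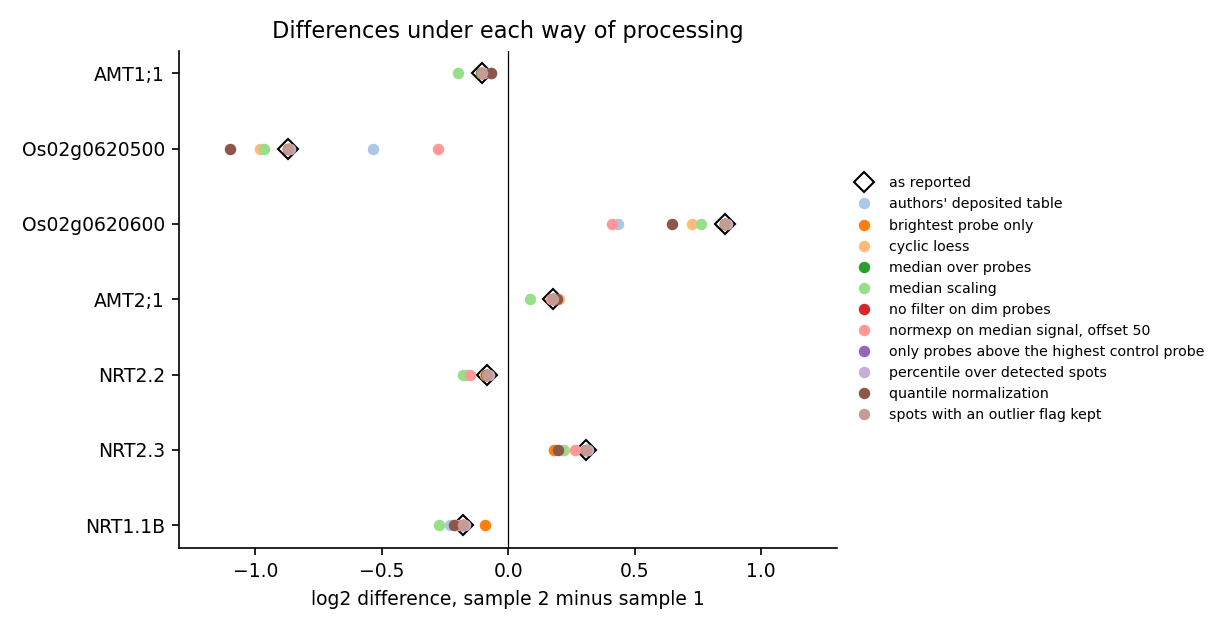
Log2 difference, sample 2 minus sample 1, of each detected locus as reported (open diamonds) and under 11 other ways of processing (coloured points). Every point keeps the side of 0 of the reported value, and the points of Os02g0620500 spread from -1.10 to -0.28. Settings that could not alter a locus repeat its reported value.

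Other loci of nitrogen transport and use were taken from a list by locus. Of 14 further transporters 13 were on the array, and 11 of these were detected in both samples, against 84.0% of all loci. None of the 11 was 2-fold apart (0 loci), against 2.31% of all loci. Their median log2 difference was -0.03, with a range of -0.09 to 0.28. Not detected were the ammonium transporter AMT2;2 (Os01g0831900), at 1.59 in sample 2 and 2.17 in sample 1, and the urea transporter DUR3 (Os10g0580400), at 4.68 in sample 2 and 1.77 in sample 1. AMT2;3 (Os01g0831300), a relative of AMT2;1 singled out after its values were seen, gave 2359 in sample 2 and 2397 in sample 1. AMT3;2 (Os03g0838400), also named after its values were seen, gave 6427 in sample 2 and 5312 in sample 1. Its log2 difference was 0.25, against an SD of 0.11 over loci of like signal. Of the 11 detected transporters, 5 were higher in sample 2 and 6 in sample 1. Of 5 regulators of nitrogen responses 4 were on the array and all 4 were detected, against 84.0% of all loci. Their differences ran from -0.13 to 0.07.

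Enzymes that turn nitrate and ammonium into amino acids were listed as well. Of 13, 10 were on the array by systematic name and all 10 were detected, against 84.0% of all loci. Their differences ran from -0.80 to 1.05. The nitrate reductase locus NIA1 (Os08g0468100) was the only one of the 10 that was 2-fold apart, against 2.31% of all loci. It gave 121 in sample 2 and 57.7 in sample 1. Its log2 difference was 1.05 (SD 0.35 between 3 probes). That call was lost in 7 of 11 other ways of processing, with log2 differences of 0.57 to 1.16. The neighbouring listed nitrate reductase locus Os08g0468700, with 1 probe found by probe name, gave 98.2 in sample 2 and 33.2 in sample 1. The value in sample 1 lay below the highest control probe of that array (44.0). RNA of these close copies may reach the same probes. Chosen after their values were seen, the listed nitrate reductase locus Os02g0770800 differed by 0.80 (281 in sample 2, 158 in sample 1) and the listed nitrite reductase locus Os01g0357100 by 0.46 (7994 in sample 2, 5733 in sample 1). Over the 11 other ways of processing these ran from 0.56 to 0.81 and from 0.36 to 0.47. The SD over loci of like signal was 0.50 for NIA1 and Os02g0770800 and 0.11 for Os01g0357100. Over the 10 enzyme loci, 5 were higher in sample 2 and 5 in sample 1, against 57.6% of all loci higher in sample 2. Furthest toward sample 1, and also named after their values were seen, were GS1;3 and NADH-GOGAT2. GS1;3 differed by -0.80 (15.4 in sample 2, 26.3 in sample 1) and NADH-GOGAT2 by -0.52 (45.6 in sample 2, 64.3 in sample 1). The GS1;3 value rests on the 1 of its 2 probes that was detected, and lay below the highest control probe in both samples. The NADH-GOGAT2 value in sample 2 also lay below the highest control probe of that array (49.9). The green tissue markers were higher in sample 2 as well (359 in sample 2, 46.0 in sample 1 in summed signal), and their part in the reductase differences was not tested.

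**Figure D5:**
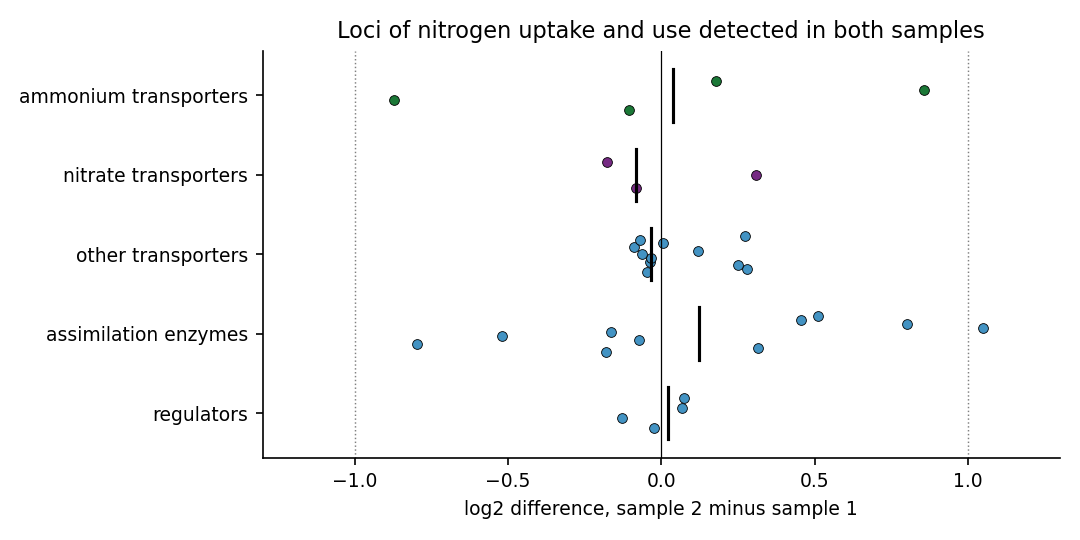
Log2 difference, sample 2 minus sample 1, of each locus found by systematic name and detected in both samples, by list, with the median of the list as a bar and dotted lines at a 2-fold difference. Transporters and regulators other than Os02g0620500 and Os02g0620600 lie within 0.31 of 0, and the assimilation enzymes reach from -0.80 to 1.05.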

How the data were processed

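The file headers name Agilent Feature Extraction 11.5.1.1 as the software that read each array, while the submitters' processing notes name 9.1. The intensity used is the deposited processed Cy3 signal, background-subtracted and detrended within the array per the file headers and not normalized between arrays. The deposited log2 table of the authors, whose normalization was not stated, served as an alternative: its columns followed the log2 median spot signal (r 0.9999 in sample 2 and 0.9996 in sample 1 across spots), with medians of 8.46 and 8.47 over non-control spots.

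Control spots were left out. The log2 signal was scaled by subtracting each array's 75th percentile over the 43144 other spots. The 1436 spots with an outlier flag were part of that percentile and were left out afterwards. Probes detected on both arrays were averaged per locus, and folds come from these scaled values. The software's error of a spot was at least 10% of the signal. It covers 1 spot, not a sample. Python 3.11.15 and limma 3.58.1 were used, and the scaling was tested on simulated data.

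Members and lists were chosen with earlier results of these data known. All 9 listed loci are named. Of the other nitrogen lists, those on the array that were 2-fold apart or not detected are named, with further ones where stated. Marker lists are given by their sums, with the root hair and inner root loci on the array also named. List symbols were checked against the RefSeq table. No test was made: the labels give 1 group of 2 arrays. The number of arrays limits the precision. Both arrays were on 1 slide and in 1 scan.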

Additional observations from a re-analysis of the deposited data

How the results depend on the processing

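Over 11 other ways of processing, which include scaling, normalization, background correction, the authors' table, filters and the summary of probes, all 76 differences computed for the 7 detected loci kept their sign, and 1 moved by more than the SD of loci of like signal (Os02g0620500 with normexp correction). Part of this agreement in sign was fixed in advance, since some settings could not alter a locus. The summary of probes leaves a locus with 1 probe unchanged, and so does a filter that removes none of its probes. Only probes above the highest control probe left no value for Os02g0620500. The number of members 2-fold apart was 0 except with quantile normalization, where it was 1. The number of all loci 2-fold apart, 453 as reported, was 113 with normexp, 142 in the authors' deposited table, 136 with only probes above the highest control probe and 1173 without a filter on dim probes. The number of nitrate loci beyond 1 SD of loci of like signal, 0 as reported, was 1 (NRT1.1B) with median scaling, quantile normalization, normexp and the authors' table. That of ammonium loci was 3 throughout, except 2 with only probes above the highest control probe. These counts were added after seeing the data. The share of all detected loci higher in sample 2 was 57.6%, against 36.2% with median scaling, 44.5% with quantile normalization and 49.8% with cyclic loess, and of the loci 2-fold apart 79.0%, 72.3%, 63.0% and 72.1% in the same order. The member count detected was 6 of 8 by the authors' present call (76.9% of all loci). It was 8 of 8 by the software's positive and significant flag (92.5% of all loci). In sample 2 alone it was 7 of 8 (86.4% of all loci), and in sample 1 alone 7 of 8 (84.8% of all loci). With NAR2.1 counted, the number detected on both arrays was 8. The normexp correction planned on the mean spot signal was not run, since the scanner files hold the median signal alone. Its use on the median signal with an offset of 50, and the counts with NAR2.1, were chosen after seeing the data. No paired analysis was possible because the samples form 1 group.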
